A study of Rattus norvegicus with 4 samples.

Results

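The blood vessels of the rat pituitary gave 537 endothelial-gated barcodes in this single-cell series, and 276 of them held no UMI (unique molecular identifier, 1 captured transcript) of Aqp1, the gene of the water channel aquaporin 1. Those 276 Aqp1-negative barcodes, of 20381 that met the quality limits and 32455 in all, are described here. Members were chosen by measured UMIs of these same barcodes: a minimum of 1000 UMIs and 500 genes, with mitochondrial UMIs no higher than 20%. They also had Prl, Gh1 and Pomc each under 10% of UMIs and hemoglobin (Hbb, Hba-a2, Hba-a3) under 5%. They further needed 3 or more of the endothelial genes Kdr, Tek, Emcn, Adgrl4, Aplnr and Plvap with a UMI, and 0 UMIs of Aqp1. Values of these genes are given as description only. A further gate gene, Pecam1, was not matched by symbol and is not analysed here.

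The cells came from postpubertal female Sprague Dawley rats, 75 days old and at random stages of the estrous cycle, with no treatment or genetic change named in the labels. In 1 preparation, 30 glands were dissected into an anterior and a posterior part, and each part gave 1 library. In the other, 30 whole glands were dispersed together and the suspension was loaded into 2 lanes. All glands of a preparation were pooled, so no library traces to a single animal. The 2 preparations are the only replicates: both lobes came from the same glands, and the lanes share a suspension.

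The anterior lobe is supplied by a dense bed of fenestrated capillaries fed by portal veins from the hypothalamus, which carry releasing factors to hormone cells and carry hormones away. The posterior lobe has its own arterial supply and a capillary bed into which axon endings release vasopressin and oxytocin. Endothelium of both beds is perforated by fenestrae, whose diaphragm protein is encoded by Plvap. Aquaporin 1 lets water cross the endothelial membrane in several continuous and fenestrated beds and is lacking from others.

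Promoter sequences are shown for the gene that splits the endothelium (Aqp1), for 2 genes that fell with it (Car4 and Gja4) and for 1 that went the other way (Pgm5). Each is 300 bases from RefSeq on build GRCr8, from 250 bases before to 50 bases after the annotated start, written 5′ to 3′ along the gene's strand. The windows are chr4:85812534-85812833 (+) for Aqp1, chr10:70325108-70325407 (+) for Car4, chr5:144920275-144920574 (-) for Gja4 and chr1:231939763-231940062 (-) for Pgm5. Capitals mark the ETS core GGAAG or its reverse complement CTTCC, the letters bound by factors such as Erg, Fli1 and Ets1.
Aqp1: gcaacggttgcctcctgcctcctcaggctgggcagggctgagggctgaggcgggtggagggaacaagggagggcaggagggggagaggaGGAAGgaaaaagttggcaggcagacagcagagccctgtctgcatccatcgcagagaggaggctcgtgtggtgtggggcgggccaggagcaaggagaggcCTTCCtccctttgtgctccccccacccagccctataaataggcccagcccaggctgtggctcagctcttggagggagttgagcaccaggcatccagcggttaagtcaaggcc
Car4: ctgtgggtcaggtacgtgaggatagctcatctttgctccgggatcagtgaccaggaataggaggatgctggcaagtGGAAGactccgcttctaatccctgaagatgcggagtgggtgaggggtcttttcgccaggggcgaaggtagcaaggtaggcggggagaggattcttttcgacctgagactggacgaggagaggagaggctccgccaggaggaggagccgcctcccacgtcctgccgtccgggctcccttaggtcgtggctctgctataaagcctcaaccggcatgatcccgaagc
Gja4: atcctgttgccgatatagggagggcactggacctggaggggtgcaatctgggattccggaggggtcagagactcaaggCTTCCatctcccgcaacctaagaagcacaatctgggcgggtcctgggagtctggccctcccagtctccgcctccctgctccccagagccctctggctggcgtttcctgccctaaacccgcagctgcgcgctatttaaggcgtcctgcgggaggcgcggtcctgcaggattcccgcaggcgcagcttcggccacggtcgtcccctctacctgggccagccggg
Pgm5: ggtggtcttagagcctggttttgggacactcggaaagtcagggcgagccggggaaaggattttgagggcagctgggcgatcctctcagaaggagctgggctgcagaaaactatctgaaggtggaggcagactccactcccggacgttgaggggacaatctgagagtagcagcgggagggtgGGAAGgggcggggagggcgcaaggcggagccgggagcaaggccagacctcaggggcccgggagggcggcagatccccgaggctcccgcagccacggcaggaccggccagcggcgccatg
The core occurred 2 times in the Aqp1 window and 1 time in each of the other 3. Of all 33469 promoters of this length, 70.1% held it on either strand. Among the named genes of the Aqp1 comparison, 9 of the 12 that rose and 9 of the 12 that fell had a RefSeq promoter, and the core stood in 5 and 9 of those. TATAAA or its reverse complement, found in 14.2% of all promoters, occurred 1 time each in Aqp1 and Car4 and not in Gja4 or Pgm5. These are matches of letters, not bound sites.

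The members were spread unevenly over the libraries. They numbered 58 in the anterior library, 42 in the posterior library, and 109 and 67 in the whole-gland lanes, or 1.02%, 1.07%, 1.91% and 1.32% of the barcodes kept there. Of the 63 endothelial-gated barcodes in the anterior library, 92.1% had 0 Aqp1 UMIs (exact Clopper-Pearson 95% interval 82.4 to 97.4). In the posterior library the share was 17.7% of 237 (13.1 to 23.2). The whole-gland lanes lay between, at 74.1% of 147 (66.3 to 81.0) and 74.4% of 90 (64.2 to 83.1). The posterior interval lay apart from that of every other library. Since Aqp1 chose the members and each lobe has 1 library, these shares are a description with no test, and their intervals cover counting error only.

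**Figure D1:**
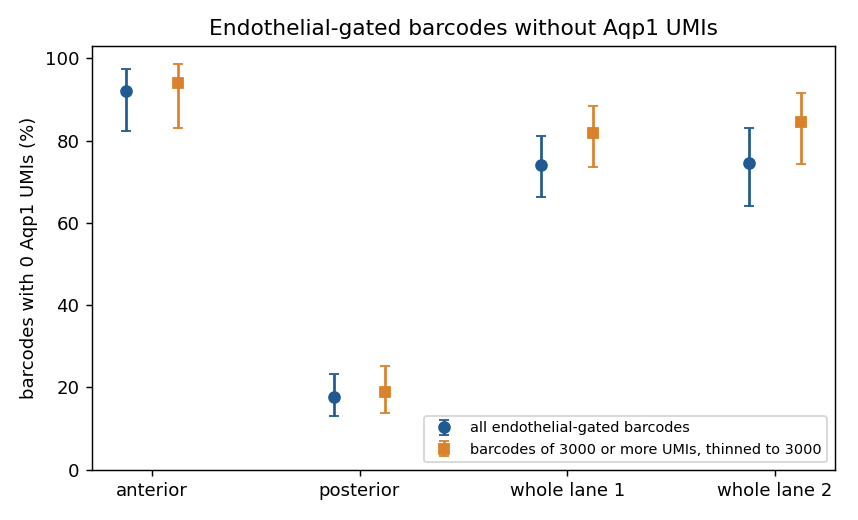
Share of endothelial-gated barcodes with 0 Aqp1 UMIs (y axis, percent) in each library (x axis), for all barcodes and for barcodes of at least 3000 UMIs thinned to 3000; points are shares and bars exact 95% intervals. The posterior library lies at 17.7% and the other libraries between 74.1% and 92.1%.

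A missing UMI can also reflect a shallow barcode, so depth was set equal. Thinned to 3000 UMIs, 93.9% of 49 anterior, 19.0% of 195 posterior, 81.9% of 116 and 84.4% of 77 whole-gland barcodes had 0 Aqp1 UMIs. The same barcodes unthinned gave 89.8%, 15.9%, 73.3% and 75.3%. Thinning left out 14 anterior, 42 posterior, 31 and 13 barcodes. Members had a median of 7273.5 UMIs and 2681 genes, against 5903 and 2304 for the 261 Aqp1-positive barcodes. Within the posterior library the members' median was 4356.5 UMIs against 5318 for the Aqp1-positive barcodes. The Aqp1-positive barcodes carried a median of 9 Aqp1 UMIs, and 14 of them carried 1.

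Barcodes of other cell types overlapped the Aqp1-positive side more than the members. To pass the gate of another cell type, a barcode needed a UMI of at least 3 of that type's markers. Of the members, 22 also passed another cell type gate, against 112 of the 261 Aqp1-positive barcodes, 91 of which passed the mural (pericyte and smooth muscle) gate and 61 the fibroblast gate. Leaving all such barcodes out, the Aqp1-negative share was 100% of 53 in the anterior library, 25.3% of 154 in the posterior library, and 83.2% and 81.8% in the lanes. All 5 Aqp1-positive barcodes of the anterior library passed another gate, so nothing is left on that side there. A Scrublet doublet score above 0.25 was found in 4 members and 6 Aqp1-positive barcodes. Across the libraries, 89 barcode sequences occurred in more than 1 library, 1 of them a member's, and none was a member in both.

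The values at the edge of the rule are given once. The 12 members with exactly 3 gate genes had 670 CPM (a gene's summed UMIs per 1000000 UMIs of all genes in those barcodes) of Cdh5, the endothelial cadherin, against 43.1 CPM in the 18 Aqp1-negative barcodes with 2 gate genes. The 14 barcodes with exactly 1 Aqp1 UMI, just outside, had 287 CPM of Car2 and 236 CPM of Treml1, against 78.8 and 42.7 CPM in the 247 with at least 2. The posterior library gave 4 of the 14 and 191 of the 247. The part of the library in this difference was not tested. The hormone limit alone kept out 15 barcodes, the hemoglobin limit 16 and the mitochondrial limit 12. All 6 gate genes were found in 195 of the 276 members.

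The endothelial label held on genes that the rule did not use. Cdh5 was at 488 CPM in the anterior library, 507 in the posterior library and 542 and 477 in the whole-gland lanes. It was at 0.744 CPM on average in the fibroblast, macrophage and folliculostellate gates, the other non-endocrine classes that the comparison used. Those classes left out barcodes that also passed the endothelial gate, whereas the members kept barcodes that passed another gate. Low levels of endothelial genes in those classes therefore follow in part from how they were chosen. Egfl7, a secreted endothelial factor, was at 722, 666, 868 and 769 CPM in the same order of libraries, against 5.36 CPM in the other classes. Tie1, the partner receptor of Tek, was at 496, 571, 526 and 559 CPM, against 2.15 CPM. In each of these genes the 4 libraries differed by less than 1.5-fold. Cldn5, the claudin of tight endothelial barriers, was low at 6.49, 0, 7.48 and 14.1 CPM. Hormone RNA stood in the members too, at a median of 0.543% of UMIs for Prl, and its source was not tested.

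Markers of other cell types summed to low levels in the members, although some mural markers stood above the other non-endocrine classes. The 10 mural markers summed to 291 CPM in members (120 to 408 over the 4 libraries), the 7 fibroblast markers to 169 CPM (66.3 to 263), the 7 macrophage markers to 98.2 CPM (33.2 to 170), and the 7 folliculostellate markers to 74.9 CPM (38.3 to 99.0). In the gates of their own cells these lists summed to 22845 CPM for fibroblast, 21176 for macrophage and 2551 for folliculostellate markers. Those gates were chosen by the same markers, so high sums there follow from the choice. The mural gate was too small to give such a reference. Of the 10 mural markers, 4 (Kcnj8, Abcc9, Rgs5 and Higd1b) were called higher in members than in the other non-endocrine classes. Tagln and Cspg4 were lower. Over all genes tested the shares were 14.5% and 7%. Of the lymphocyte markers, 5 of 7 were at 0 UMIs in members. The lymphatic genes Prox1 (4 UMIs in all members) and Mmrn1 (13 UMIs) were near 0, whereas Lyve1, a hyaluronan receptor of lymphatic and some sinusoidal endothelium, was at 527, 581, 615 and 637 CPM.

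Against the other non-endocrine cells the members showed a broad endothelial program. In edgeR's quasi-likelihood test on UMI sums per class and preparation (n = 2 preparations), 3113 of 14508 genes (21.5%) passed an adjusted p of 0.05 with at least a 2-fold change. Of these, 2098 (14.5%) were higher and 1015 (7%) were lower in members. Without the posterior library 2084 were higher and 669 lower. The median log2 fold change over all genes tested was 0.12. The comparison was with the mean of the fibroblast, macrophage and folliculostellate gates, taken on the log scale. The mural gate held 25 and 9 barcodes in the 2 preparations, under the minimum of 30, and was left out. The CPM printed for the other classes are plain averages. The log2 fold changes therefore need not match the ratio of the CPM, and a class near 0 CPM makes them larger.

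The 15 largest rises were genes at low levels in the other non-endocrine classes. Sox17, a transcription factor of arterial and barrier endothelium, was at 156 CPM in the anterior library, 191 in the posterior library and 137 and 128 in the whole-gland lanes, with 0 UMIs in the 3 other classes. Against a floor of 3 counts over those classes it was at least 1371-fold higher. The unnamed gene AABR07001389.1 was likewise at 0 UMIs there and at 84.4, 122, 97.3 and 114 CPM in members, at least 946-fold higher. Flt1, the decoy VEGF receptor, was at 722, 967, 852 and 718 CPM with 5 UMIs in the other classes together. Flt4, the VEGF-C receptor, was at 107, 94.4, 103 and 102 CPM with 1 UMI elsewhere, a ratio of 2859 (exact 95% counting interval 509 to 113323). No member library overlapped the other classes in any of these 4 genes, which follows from their choice as the largest rises. The other classes were also chosen without barcodes of the endothelial gate.

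Further genes in this set were Adgrf5, an adhesion receptor (546 CPM on average over the preparations in members, 0.109 in the other classes), Dll4, the Notch ligand of sprouting endothelium (162 and 0.394), and Clec14a, an endothelial lectin (1176 and 14.5). Irx3, a homeobox factor, was at 168 CPM in members and 1.81 in the others, with 125 UMIs there. The immunity-associated GTPases Gimap5 and Gimap9 were at 217 and 139 CPM, against 0.220 and 0.0132. Dysf, the membrane repair protein dysferlin, was at 199.9 CPM against 0.502. Cyyr1 was at 316 CPM against 0.919, and Klhl4 at 155 against 0.142. Treml1, best known from platelets, was at 274 CPM against 0.583, and Tie1 completed the set.

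**Figure D2:**
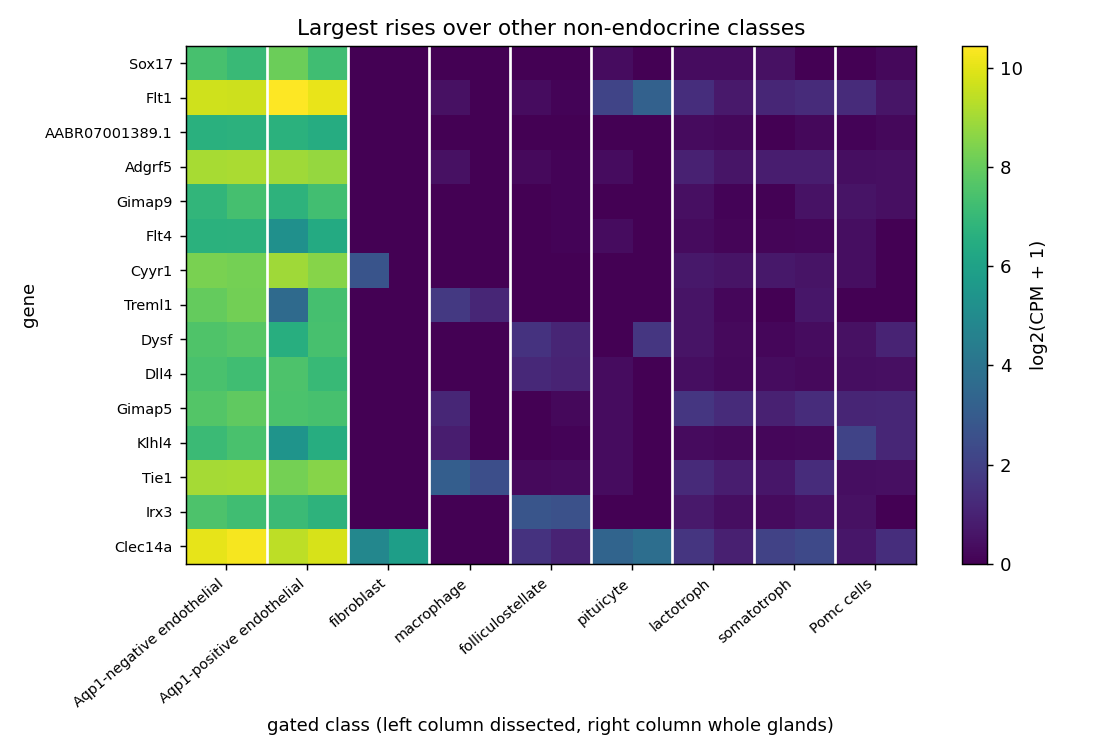
Levels, as log2(CPM + 1), of the 15 largest called rises of Aqp1-negative barcodes over other non-endocrine classes (rows) in each gated class and preparation (columns). Both endothelial classes are bright in all rows, and Treml1 is dimmer in the dissected Aqp1-positive sum.

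The 5 largest falls were genes of the neighbouring cells. Edn3, the folliculostellate endothelin, was at 1.62, 0, 7.48 and 15.8 CPM in members and 463 CPM in the other classes. Edn3 is among the markers that chose the folliculostellate gate, so its fall follows in part from that choice. Axl, a receptor kinase of phagocytes and stroma, was at 4.87, 2.55, 0.935 and 10.6 CPM against 128 CPM. Hk2, a hexokinase, was at 9.73, 0, 3.74 and 1.76 CPM against 129.6 CPM, and Sdc4, a cell-surface proteoglycan, at 12.98, 2.55, 6.55 and 3.52 CPM against 122 CPM. Cilp, a matrix protein of fibroblasts, had 1 UMI in all members.

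The transcription factors of endothelial identity were called in nearly the whole list. Of 26 tested, 23 were higher and 1 was lower than in the other classes, where 14.5% and 7% of all genes were. Their median log2 fold change was 3.70. The list summed to 8713 CPM in members and 8658 CPM in Aqp1-positive barcodes. Klf2, the shear-stress factor, was at 2698, 2627, 2469 and 2903 CPM and rose by 2.20 ± 0.17 (SE) on the log2 scale, adjusted p = 4.59e-08 by edgeR. Erg, an ETS factor that keeps endothelial identity, was at 274, 247, 314 and 276 CPM against 3.62 CPM and rose by 8.79 ± 0.40 (SE) on the log2 scale, adjusted p = 2.38e-10. Lmo2, a bridging factor of blood and vessel development, was at 659, 887, 862 and 823 CPM, and Tcf4 at 753, 729, 721 and 763 CPM. Fli1 was at 162 CPM against 50.3. The exception was Lyl1, at 92.6 CPM in members and 179 in the other classes, where macrophages also express it. The named factors that rose stayed within a 1.5-fold range across the 4 member libraries.

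Receptors for VEGF and angiopoietin that the rule did not use were higher in 7 of 8 tested, where 14.5% of all genes were. Their median log2 fold change was 5.93. Ptprb, the phosphatase that restrains Tek, was at 503, 711, 533 and 570.0 CPM and rose by 7.86 ± 0.24 (SE) on the log2 scale, adjusted p = 1.52e-12 by edgeR. Nrp1, the VEGF co-receptor, was at 420.1, 482, 433 and 424 CPM against 53.7 CPM. Of the 6 lymphatic genes tested, Lyve1, Flt4 and Mmrn1 were higher than in the other classes and Pdpn was lower. Mmrn1 was called at a low level, 4.35 CPM on average in members with 0 UMIs in the other classes. Of the genes for caveolae and transcytosis, 9 of 11 were higher. Cavin2 was at 561, 548, 657 and 659.7 CPM against 25.8 CPM, and Ehd4, which shapes membranes in trafficking, at 498, 650.3, 588 and 570.0 CPM against 97.8. Plvap, the fenestral diaphragm gene that served in the gate, was at 3384, 4761, 4019 and 3814 CPM.

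Junction and adhesion genes were higher in 15 of 20, where 14.5% of all genes were. Among them was the sialomucin Cd34 at 722, 709, 794 and 785 CPM. Genes of basement membrane and matrix were higher in 20 of 22 than the mean of the other classes and none was lower. The fibroblast gate nevertheless held more of this RNA than the members. The list summed to 13038 CPM in members, 19172 in the fibroblast gate, 3454 in the folliculostellate gate and 1251 in the macrophage gate. Sparc, a collagen-binding protein, was at 3408, 3652, 3503 and 3339 CPM and rose by 1.01 ± 0.18 (SE) on the log2 scale, adjusted p = 3.30e-04 by edgeR. Igfbp7, an angiogenic matrix protein, was at 2703, 2782, 3319.5 and 3226 CPM, and Col4a1, a chain of collagen IV, at 633, 612, 712 and 677 CPM against 281 CPM. Of the vasoactive genes 13 of 16 were higher and Gucy1a1 was lower. Ramp2, the partner of the adrenomedullin receptor, was at 869, 982, 1136 and 1094 CPM, and the endothelin receptor Ednrb at 467, 558, 515 and 565 CPM. The S1P receptor S1pr1 was at 193, 237, 219.8 and 232 CPM. These levels were alike in the anterior and posterior members to within 1.5-fold.

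Genes of signalling pathways moved in part. In the Wnt list 9 of 18 were higher, among them the receptor Fzd4 (79.5, 79.1, 65.5 and 73.9 CPM) and its co-activator Tspan12 (199.5, 232, 188 and 160.1 CPM). In the BMP and TGF-beta list 12 of 20 were higher, and in the Notch list 8 of 17 were higher and 3 lower. Immediate early and stress genes, which can respond to cell dispersion, were higher in 1 of 17 (Socs3, 1173, 2145, 1251 and 1397 CPM) and lower in 2 (Nr4a1 and Dnajb1). Of the interferon and MHC class I list, 5 of 21 were higher. Over all genes tested, 14.5% were higher and 7% lower.

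Transporters of the blood-brain barrier gave a mixed result. Of 16 tested, Abcg2, Slco1a4, Itm2a and Cldn5 were higher and Ocln and Slc7a5 lower, where 14.5% and 7% of all genes were. Ocln lost its call without the posterior library, and its direction turned with at least 3000 UMIs or at most 10% mitochondrial UMIs. The lipid transporter gene Mfsd2a, a mark of that barrier, had 8 UMIs in all members, all of them from the posterior library.

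The comparison with the Aqp1-positive endothelium asks which genes go with the absence of Aqp1. In members, 151 genes were higher and 607 lower, together 758 of 14508 (5.22%), by edgeR at an adjusted p of 0.05 and at least a 2-fold change. The higher genes were 1.04% and the lower 4.18% of those tested, around a median log2 fold change of -0.00036 over all genes. Carbonic anhydrases moved in opposite directions: Car2, the cytosolic form, was higher, and Car4, the form anchored on the luminal membrane, was almost missing. These were the calls among 5 genes tested of the water channel and carbonic anhydrase list. Aqp1 and all gate genes were left out of this test.

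The sides of this comparison differ in library as well as in Aqp1. In the dissected preparation the members' sum held 58 anterior and 42 posterior barcodes, and the Aqp1-positive sum 5 and 195. Without the posterior library the dissected Aqp1-positive sum held only the 5 anterior barcodes, all of which passed another gate. That run called 29 genes higher and 233 lower. Of these, 19 and 221 were also called with all libraries. Without the anterior library 44 were higher and 386 lower, and without the endothelial barcodes that passed another gate 105 and 233, of which 58 and 184 were also called with all barcodes. With 3 suspensions and the 2 endothelial classes alone, 19 were higher and 252 lower.

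Each gene's values within the posterior library and within the whole-gland lanes are therefore given first. Car2 in members was at 386 CPM in the anterior library, 482 in the posterior library and 499 and 493 in the whole-gland lanes. In Aqp1-positive barcodes Car2 was at 263, 13.2, 279 and 207 CPM in the same order. The posterior Aqp1-positive barcodes stood apart from all 7 other sums. Within the posterior library the members were 36.5-fold higher (counting interval 22.98 to 61.1) and within the lanes 1.95-fold (1.65 to 2.32). The log2 fold change in the fit was 1.93 ± 0.55 (SE), adjusted p = 0.0480 by edgeR, without the posterior library 0.88, under the 2-fold limit. The call also ended with DESeq2 (adjusted p = 0.183).

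Car4 showed the reverse pattern, with 7 UMIs in all members and 512 in the Aqp1-positive barcodes. In members it was at 0, 10.2, 2.81 and 0 CPM and in Aqp1-positive barcodes at 0, 279, 165 and 74.8 CPM. It fell by 85.5-fold in summed levels (counting interval 41.2 to 214), and the fit gave a log2 fold change of -6.16 ± 0.46 (SE), adjusted p = 1.5e-05 by edgeR. In the lanes alone the Aqp1-positive level was 73.1-fold that of the members (24.2 to 361). The anterior Aqp1-positive barcodes, only 5, had none. With DESeq2 the adjusted p for Car4 was 0.311.

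Ptpru, a receptor phosphatase of cell adhesion, was at 284, 296, 299 and 236 CPM in members and 119.6, 5.94, 169 and 167 CPM in Aqp1-positive barcodes. Within the posterior library the members were 49.8-fold higher (25.3 to 112), and within the lanes 1.65-fold (1.34 to 2.04). Mal, a lipid-raft protein of apical sorting, was at 324, 347, 333 and 350.1 CPM in members and 132, 23.8, 160.1 and 233 CPM in Aqp1-positive barcodes. Pgm5, an adhesion-plaque relative of phosphoglucomutase, was at 156, 109.7, 170.2 and 158 CPM in members and 95.7, 9.90, 70.9 and 83.6 CPM in Aqp1-positive barcodes. In these genes too, posterior Aqp1-positive barcodes held the lowest level and the posterior members stood with the anterior ones.

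Among the matrix and guidance genes that rose, Emilin2, an elastin-interface protein, was at 87.6, 117, 90.7 and 93.2 CPM in members and 47.8, 1.98, 32.01 and 61.6 CPM in Aqp1-positive barcodes. Flrt2, an adhesion and repulsion ligand, was at 98.95, 105, 74.8 and 87.96 CPM in members and 108, 9.24, 25.2 and 43.99 CPM in Aqp1-positive barcodes. Lrrc3 was at 73, 56.1, 65.5 and 66.8 CPM in members and 11.96, 9.90, 22.9 and 30.8 CPM in Aqp1-positive barcodes. Lrrc3 kept its call without the posterior library (log2 fold change 1.61, edgeR adjusted p = 0.0239), as did Pgm5 (1.13, adjusted p = 0.00176) and Mal (1.03, adjusted p = 0.0125). In that run the dissected Aqp1-positive side was 5 barcodes with 83598 UMIs in all, so calls kept or lost there rest on few counts. Egln3, an oxygen-sensing prolyl hydroxylase, was at 76.2, 143, 112 and 89.7 CPM in members and 47.8, 3.30, 66.3 and 61.6 CPM in Aqp1-positive barcodes. Cttnbp2, Rnf19b and the unnamed AABR07000411.1 completed the set at 54.1, 66 and 78.5 CPM in members, against 14.6, 20.2 and 27.4.

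Most of these 12 rises lost their call when 1 library was left out. Without the posterior library Emilin2, Flrt2, Ptpru, Egln3, Cttnbp2, Rnf19b, AABR07000411.1 and Car2 were not called (edgeR adjusted p = 0.0958, 0.0515, 0.0569, 0.448, 0.0832, 0.181 and 0.405 for the first 7, and a change under 2-fold for Car2). Without the anterior library, Flrt2, Pgm5 and Cttnbp2 kept their calls and the other 9 did not, with log2 fold changes between 1.45 (Rnf19b) and 3.36 (Cga). Without the barcodes that passed another gate Ptpru, Mal, Egln3 and Cttnbp2 were not called (edgeR adjusted p = 0.185, 0.108, 0.108 and 0.0875), although their log2 fold changes were 1.75, 1.58, 1.91 and 1.80, against 2.04, 1.90, 1.92 and 2.01 with all barcodes. With DESeq2, Emilin2, Ptpru, Pgm5, Car2, Egln3 and Mal were not called.

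Cga, the alpha subunit of pituitary glycoprotein hormones, was the largest named rise but rested on few barcodes. In members it was at 795, 12.8, 2092 and 72.1 CPM. In the anterior library 455 of its 490 UMIs came from 1 barcode, and in the first lane 2157 of 2237 from 1 barcode. The median member had 0 Cga UMIs in every library. Without the endothelial barcodes that passed another gate its edgeR adjusted p was 0.138.

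**Figure D3:**
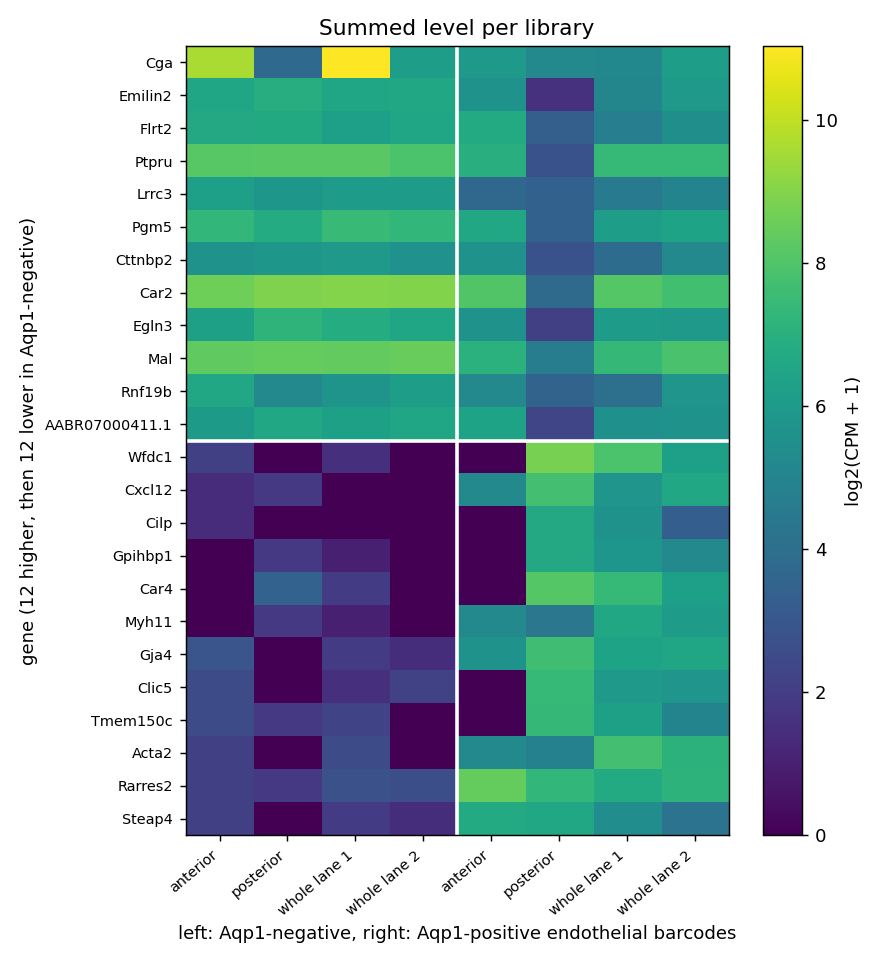
Levels, as log2(CPM + 1), of the 12 largest called rises and 12 largest called falls of Aqp1-negative against Aqp1-positive barcodes (rows) in each library (columns, members at left). In the top rows the posterior Aqp1-positive column is darkest for most genes, and in the bottom rows all 4 member columns are dark.

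The largest falls were low in all 4 member libraries. Wfdc1, a secreted protease-inhibitor-like protein, had 4 UMIs in members and 776 in Aqp1-positive barcodes, which held 0, 431, 242 and 74.8 CPM. The fit gave a log2 fold change of -7.66 ± 0.73 (SE), adjusted p = 1.3e-05 by edgeR. Cxcl12, the chemokine of arterial and stromal cells, had 2 UMIs in members against 369, a ratio of 216 (counting interval 59.3 to 1788). Gpihbp1, which carries lipoprotein lipase to the capillary lumen, had 2 UMIs against 184, a ratio of 108 (29.4 to 895).

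Gja4, the arterial connexin 37, was at 6.49, 0, 2.81 and 1.76 CPM in members and 47.8, 203, 84.6 and 87.98 CPM in Aqp1-positive barcodes. It fell by 53.8-fold in summed levels (27.01 to 126), and the fit gave a log2 fold change of -5.45 ± 0.39 (SE), adjusted p = 1.69e-06 by edgeR. Clic5, a chloride channel relative of the membrane skeleton, was at 4.87, 0, 1.87 and 3.52 CPM in members and 0, 168, 61.7 and 52.8 CPM in Aqp1-positive barcodes. Tmem150c was at 4.87, 2.55, 3.74 and 0 CPM in members and 0, 159.8, 75.5 and 30.8 CPM in Aqp1-positive barcodes. In all 3 genes the posterior and whole-gland Aqp1-positive sums lay above all 4 member sums, which their choice among the largest falls favours. Wfdc1, Cxcl12, Gpihbp1, Car4, Gja4, Clic5 and Tmem150c kept their calls both without the posterior library and without the barcodes that passed another gate. With DESeq2, Gpihbp1 and Car4 lost theirs and the other 5 did not.

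The remaining 5 named falls were genes of mural cells and fibroblasts: Myh11 and Acta2 of smooth muscle, and Cilp, Rarres2 and Steap4 of stroma. None of these 5 was called once endothelial barcodes that passed another gate were left out, with edgeR adjusted p from 0.0669 (Rarres2) to 0.736 (Myh11). The levels left were low on both sides. In the lanes Acta2 was then at 0 CPM in members and 17.2 CPM in Aqp1-positive barcodes, Steap4 at 0 and 12.9, Rarres2 at 0.696 and 12.9, Myh11 at 0.696 and 4.30, and Cilp at 0 in both. A lost call at such levels does not show that these genes no longer differed. With the barcodes of other gates included, 9 of 10 mural, 6 of 6 fibroblast and 6 of 7 macrophage markers tested were lower in members. Without those barcodes the counts were 2, 1 and 0. The barcodes were left out for holding at least 3 markers from such a list, so this drop is partly set by the filter. The mural markers summed to 3618 CPM in Aqp1-positive barcodes (3287 to 4962 over the libraries) and the fibroblast markers to 2242 CPM (1592 to 4809). Rgs5, the pericyte marker, was at 206, 61.2, 232 and 96.8 CPM in members and 2823, 2439, 1873 and 3383 CPM in Aqp1-positive barcodes, and its call held without those barcodes (log2 fold change -3.58, edgeR adjusted p = 5.31e-05). The part of mural RNA in the Rgs5 result was not tested.

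The arterial genes that were called were all lower in members. Of 17 tested, 7 were lower and none higher, where 4.18% and 1.04% of all genes were. The median log2 fold change was -1.11 against -0.00036 over all genes. Mgp, a matrix inhibitor of calcification, was at 1039.8, 1178, 1164 and 1152 CPM in members and 7261, 5516, 5878 and 3928 CPM in Aqp1-positive barcodes, a log2 fold change of -2.30 ± 0.31 (SE), adjusted p = 2.87e-04 by edgeR. Every member sum of Mgp lay below every Aqp1-positive sum. Fibroblast-gate sums held more Mgp than either class, 34124 and 43999 CPM in the 2 preparations. Without the barcodes that passed another gate the log2 fold change of Mgp was -1.16 (edgeR adjusted p = 0.0470), with 668 CPM in members and 1492 CPM in Aqp1-positive barcodes of the lanes. The part of fibroblast RNA in the Mgp result was not tested. The phosphatase Alpl was at 25.95, 48.5, 45.8 and 36.9 CPM in members and 23.9, 230.4, 109.8 and 70.4 CPM in Aqp1-positive barcodes. The Notch target Hey1 was at 11.4, 10.2, 5.61 and 8.80 CPM in members and 11.96, 68.7, 25.2 and 30.8 CPM in Aqp1-positive barcodes. The lymphangiogenic ligand Vegfc was at 30.8, 35.7, 29 and 22.9 CPM in members and 0, 108, 50.3 and 92.4 CPM in Aqp1-positive barcodes. The guidance receptor Unc5b was at 14.6, 15.3, 14.03 and 10.6 CPM in members and 0, 97.05, 36.6 and 48.4 CPM in Aqp1-positive barcodes. The chemokine receptor Cxcr4 was at 12.98, 0, 4.68 and 0 CPM in members and 71.8, 79.9, 45.7 and 30.8 CPM in Aqp1-positive barcodes. Gja4, Mgp and Cxcr4 stayed called without the posterior library, and Hey1, Alpl, Vegfc and Unc5b did not (edgeR adjusted p = 0.159, 0.276, 0.304 and 0.318).

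Of the 5 venous genes called, 4 were higher in members. Of 11 tested, 4 were higher and 1 lower, where 1.04% and 4.18% of all genes were, with a median log2 fold change of 1.003. Nr2f2, the factor that sets venous identity, was at 438, 383, 460.2 and 422 CPM in members and 718, 111, 316 and 176 CPM in Aqp1-positive barcodes, a log2 fold change of 1.10 ± 0.21 (SE), adjusted p = 0.00394 by edgeR. Within the posterior library the members were 3.45-fold higher (2.75 to 4.32) and within the lanes 1.67-fold (1.42 to 1.98). The adhesion molecule Vcam1 was at 224, 148, 48.6 and 188 CPM in members and 419, 42.3, 73.2 and 65.98 CPM in Aqp1-positive barcodes. The semaphorin receptor Nrp2 was at 292, 354, 326 and 334 CPM in members and 191, 102, 219.5 and 242 CPM in Aqp1-positive barcodes. The peptidase Cpe was at 321, 334, 332 and 348 CPM in members and 335, 73.3, 268 and 198 CPM in Aqp1-positive barcodes. Sele, the inducible selectin, was lower at 6.49, 45.9, 4.68 and 5.28 CPM in members and 11.96, 104, 43.4 and 4.40 CPM in Aqp1-positive barcodes. None of these 4 rises was called without the posterior library (edgeR adjusted p from 0.138 for Nrp2 to 0.877 for Vcam1), nor with the 3 suspensions kept apart. Nrp2 and Cpe were also not called without the barcodes that passed another gate (edgeR adjusted p = 0.183 and 0.0511). Sele was not called without the posterior library (adjusted p = 0.165).

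Genes of tip cells and sprouting were lower in 5 of 18 and higher in 1, where 4.18% and 1.04% of all genes were. Esm1, the proteoglycan of tip cells, was at 48.7, 61.2, 50.5 and 65.1 CPM in members and 11.96, 436, 169 and 106 CPM in Aqp1-positive barcodes, a log2 fold change of -2.24 ± 0.34 (SE), adjusted p = 9.61e-04 by edgeR, and without the posterior library -1.07 (adjusted p = 0.191). Pdgfb, which recruits pericytes, was at 50.3, 30.6, 61.7 and 63.3 CPM in members and 35.9, 215, 89.2 and 114 CPM in Aqp1-positive barcodes. The potassium channel subunit Kcne3 was at 1.62, 5.10, 5.61 and 1.76 CPM in members and 0, 27.1, 20.6 and 17.6 CPM in Aqp1-positive barcodes. Tp53i11 was higher, at 448, 337, 421 and 409.9 CPM in members and 323, 151, 256 and 238 CPM in Aqp1-positive barcodes. Apln, the ligand of Aplnr, was not called, at 110.3, 91.8, 195 and 219.9 CPM in members and 95.7, 40.3, 109.8 and 202 CPM in Aqp1-positive barcodes (log2 fold change 0.86 ± 0.37 (SE), adjusted p = 0.217 by edgeR). Without the posterior library Pdgfb, Kcne3 and Tp53i11 were not called, Tp53i11 because its change was under 2-fold (0.74 on the log2 scale).

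Of the vasoactive genes 4 of 16 were lower and none higher, where 4.18% and 1.04% of all genes were. Ramp3, a partner of the adrenomedullin receptor, was at 12.98, 35.7, 22.4 and 8.80 CPM in members and 23.9, 605, 272 and 216 CPM in Aqp1-positive barcodes, a log2 fold change of -4.40 ± 0.34 (SE), adjusted p = 3.25e-06 by edgeR. Nos3, the endothelial nitric oxide synthase, was at 6.49, 7.65, 10.3 and 19.4 CPM in members and 0, 70.6, 38.9 and 30.8 CPM in Aqp1-positive barcodes. Edn1, endothelin 1, was at 3.24, 10.2, 0 and 1.76 CPM in members and 0, 35.7, 0 and 8.80 CPM in Aqp1-positive barcodes. Ramp3 stayed called without the posterior library, and Nos3 and Edn1 did not. The fourth, Gucy1a1, was not called without the barcodes that passed another gate (edgeR adjusted p = 0.849). The partner Ramp2 had a log2 fold change of -0.0091 ± 0.33 (SE), near 0.

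**Figure D4:**
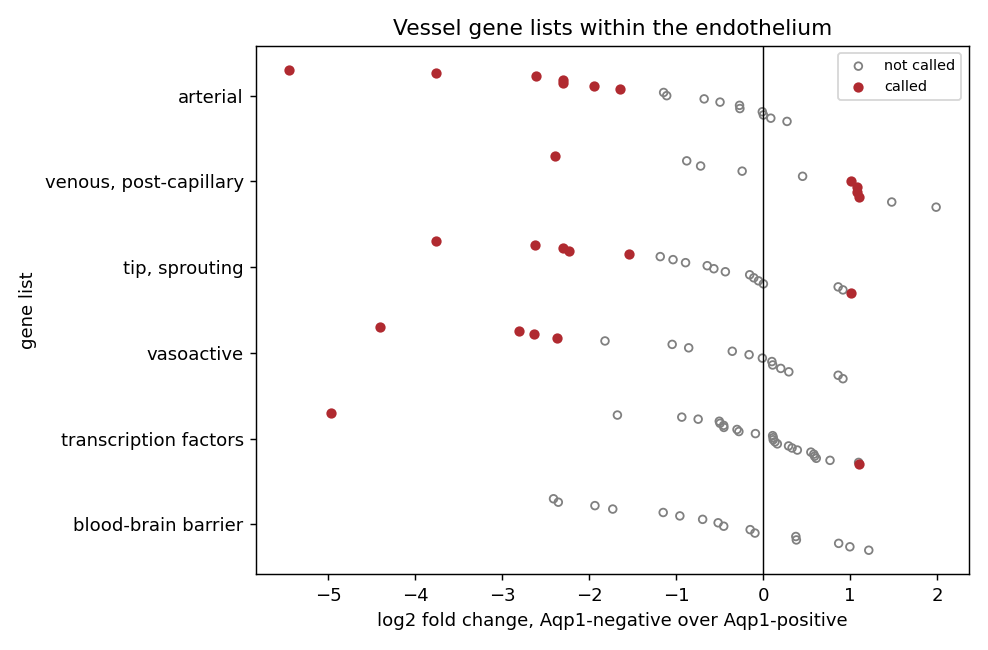
Log2 fold change of Aqp1-negative over Aqp1-positive barcodes (x axis) for every tested gene (point) of 6 vessel gene lists (y axis), with called genes filled. Arterial calls, 7 of 17, all lie below 0, and 4 of the 5 venous calls lie above 0.

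Of the BMP and TGF-beta list, Bmp4 was higher and Id1, Smad6 and Tgfb2 lower, among 20 tested. The shares over all genes were 1.04% higher and 4.18% lower. Bmp4 was at 50.3, 119.9, 86.99 and 106 CPM in members and 156, 12.5, 34.3 and 52.8 CPM in Aqp1-positive barcodes. Id1, a BMP target, was at 201, 247, 200.2 and 213 CPM in members and 144, 744, 368 and 290.3 CPM in Aqp1-positive barcodes. Without the posterior library none of these 4 was called (edgeR adjusted p from 0.115 for Tgfb2 to 0.724 for Bmp4). Of the lipid genes, Gpihbp1, Lpl and Tcf15 were lower among 10 tested. Tcf15, a factor of lipid-handling capillaries, was at 11.4, 20.4, 30.9 and 14.1 CPM in members and 11.96, 104, 61.7 and 74.8 CPM in Aqp1-positive barcodes. Of the caveolar list Cav1 and Esm1 were lower, with Cav1 at 43.8, 33.2, 63.6 and 49.3 CPM in members and 35.9, 199, 109.8 and 132 CPM in Aqp1-positive barcodes. Tcf15 and Cav1 were not called without the posterior library (edgeR adjusted p = 0.321 and 0.141), and Lpl was not called without the barcodes that passed another gate (0.811).

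Matrix genes split, with Emilin1 higher and Lamb1, Fn1, Igfbp3 and Col18a1 lower among 22 tested. Igfbp3, a growth-factor binding protein, was at 509, 390.2, 483 and 572 CPM in members and 478, 2387, 1653 and 897 CPM in Aqp1-positive barcodes, a log2 fold change of -1.92 ± 0.22 (SE), adjusted p = 6.23e-05 by edgeR. Of the chemokine list, Cxcl12, Il6, Il4r and Ackr3 were lower among 15 tested. Ackr3, the scavenger of Cxcl12, was at 11.4, 33.2, 14.03 and 8.80 CPM in members and 35.9, 109, 82.3 and 39.6 CPM in Aqp1-positive barcodes. Of the identity factors only Nr2f2, higher, and Foxf1, lower (2 UMIs in members and 72 in Aqp1-positive barcodes), were called among 26. Jam3 was lower among 20 junction genes, beside Sele, with Vcam1 higher. No gene of the Wnt (18 tested), blood-brain barrier (16) or interferon and MHC class I (21) lists was called between the endothelial classes. Over all genes 5.22% were called, so a lack of calls in lists this short says little about them. Without the barcodes that passed another gate, the interferon-induced Isg15 and Mx2 were called lower in members (log2 fold changes -1.12 and -1.76, edgeR adjusted p = 0.0160 and 0.00367). Without the posterior library Emilin1, Il4r and Foxf1 were not called, while Igfbp3, Il6, Ackr3 and Jam3 were. Without the barcodes that passed another gate Lamb1 and Col18a1 were not called, and Col18a1 turned direction (log2 fold change 7.22, edgeR adjusted p = 0.611). In the lanes Col18a1 was then near the floor, at 2.09 CPM in members and 0 CPM in Aqp1-positive barcodes.

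The 42 members of the posterior library could be set against Aqp1-positive barcodes of the same library. There, 72 of 7028 genes with at least 30 UMIs were at least 4-fold higher in members with a counting interval above 1 (1.02%), and 349 at least 4-fold lower (4.97%). These sets leave out possible free RNA and were chosen after values had been seen. The 72 genes had median levels of 106 CPM in posterior members and 12.9 in posterior Aqp1-positive barcodes, 76.2 in anterior members, and 83.0 and 45.9 CPM in Aqp1-negative and Aqp1-positive barcodes of the whole-gland lanes. The 349 genes had 2.55, 42.9, 8.11, 6.11 and 25.6 CPM in the same order.

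The lanes are from the other preparation and were not used to choose these genes. They share 16 and 20 barcode sequences with the posterior library, 1 of them a member's. There, 66 of the 72 genes were again higher in members, where 52.4% of all 7028 genes were, and 15 (20.8%) were at least 2-fold higher, where 2.50% of all genes were. Of the 349, 328 were again lower, where 47.5% of all were, and 282 (80.8%) at least 2-fold lower, where 7.20% were. With barcodes that passed another gate left out of the lanes, 59 of the 72 were higher, against 49.1% of all genes, and 12 were at least 2-fold higher (16.7%, against 8.59% of all genes). Of the 349, 224 were lower, against 49.8% of all genes, and 178 at least 2-fold lower (51.0%, against 6.77%). The Aqp1-positive side of the lanes then held 34 barcodes. Median levels of the 349 were 3.48 CPM in members and 12.9 CPM in those barcodes. At such levels few UMIs decide a 2-fold difference, and the shares over all genes were not matched for level. Lane values of the higher set lay closer together than the posterior ones.

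**Figure D5:**
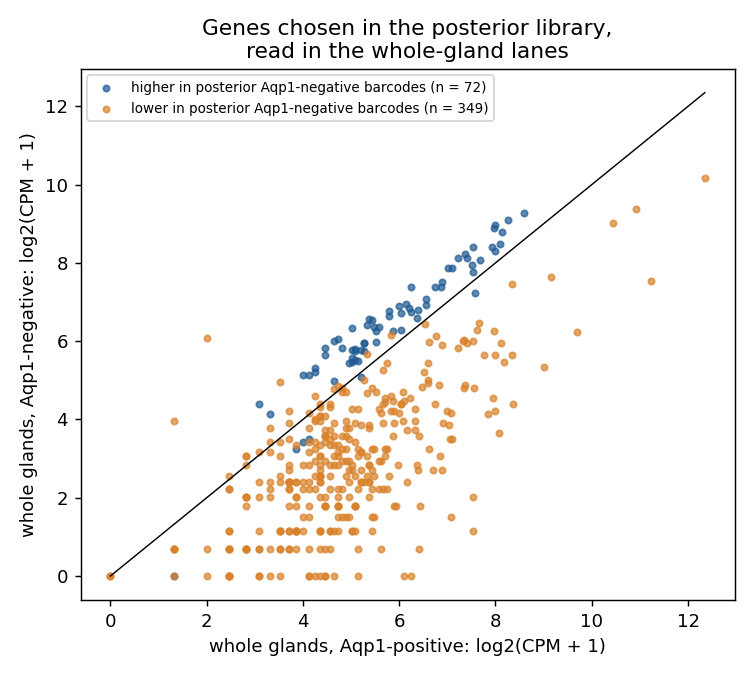
Genes at least 4-fold higher (72) or lower (349) in posterior-library Aqp1-negative than Aqp1-positive barcodes, placed by their level in Aqp1-positive (x axis) and Aqp1-negative (y axis) barcodes of the whole-gland lanes, both as log2(CPM + 1); the line marks equal levels. Of the higher set 66 lie above the line, and of the lower set 328 lie below it, in lanes that include barcodes of other gates.

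Few genes differed between the members of the lobes. Of 4835 genes with at least 30 UMIs in the anterior and posterior members together, 56 (1.16%) differed at least 4-fold, 15 higher (0.31%) and 41 lower (0.848%) in the posterior library. Between the lanes of the same suspension the share was 0.317% of 6316 genes, 0.111% higher and 0.206% lower in the second. Without the 5 anterior and 3 posterior members that passed another gate, 14 genes were past the limit. There is 1 library per lobe, so this has no replicate check, and the tissue that posterior-library members came from cannot be told apart from it: that library also held 523 lactotroph-gate and 443 somatotroph-gate barcodes.

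Most of the differences named here rested on single barcodes. The other genes among the 56 are not described in this way, and the 56 include possible free RNA, which the named genes leave out. The genes with the largest posterior ratios, Scn7a, Grik3, Fam189a2 and Fndc3c1, had 44, 36, 39 and 39 UMIs in posterior members and none in anterior ones. In each, 1 barcode held most of them, 84.1%, 94.4%, 87.2% and 87.2%. Grik3 and Scn7a are listed here as markers of pituicytes and Schwann cells. Rrad, Srebf1 and Fzd5 likewise had 74.2%, 82.9% and 68% of their posterior UMIs in 1 barcode. Serpinb1a, a protease inhibitor, was spread more widely, 4.72-fold higher in posterior members (counting interval 2.40 to 9.96) with 25% in 1 barcode. The interferon-induced Ifit3 was 3.35-fold higher (1.76 to 6.66), at 24.3, 81.6, 40.2 and 82.7 CPM, a spread that the lanes also showed.

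On the anterior side Slpi, Cryab, Cd24, Nnat, Dapl1, Ccl5 and Cga had between 86.8% (Ccl5) and 100% (Slpi) of their anterior UMIs in 1 barcode. Ly6h had 51.1% in 1 barcode. Ccl2, a monocyte chemokine, was at 206, 5.10, 54.3 and 118 CPM, with 42.5% of its anterior UMIs in 1 barcode. LOC100134871 had 1656 UMIs in anterior members and none in posterior ones, and Hba-a2 likewise had none there. Hemoglobin of at least 1% of UMIs was found in 4 of 58 anterior, 0 of 42 posterior, 9 of 109 and 4 of 67 lane members. This share counts Hbb, Hba-a2 and Hba-a3 alone and leaves LOC100134871 out, as the rule does. A count of 0 of 42 allows a share of up to 7.14%, and the rule itself limits hemoglobin.

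Clustered among themselves (Leiden, resolution 0.5), the members fell into 6 groups, given as a description. The 4 largest held 99, 65, 53 and 35 barcodes and were found in all libraries. The cluster of 35 was led by Rrad, Klf4, Ptgs2 and Egr2 and had 16202 CPM of Fos, against 3206 CPM in the cluster of 99 and 8305 in that of 65. It held 11 of the 42 posterior, 10 of the 58 anterior, 7 of 109 and 7 of 67 lane members. The cluster of 53 was led by the chemokine Cxcl11, with the interferon-induced Isg15 also among its leading genes. The cluster of 99 was led by Lhb and Cga, which came from few barcodes. Plvap lay between 3458 and 4633 CPM in these 4.

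The small clusters differed in kind. All 15 barcodes of one also passed another gate, 3 of them with a high doublet score, and it was led by Cd74 and other MHC class II genes with Dcn at 643 CPM. Plvap there was 1638 CPM. The other, of 9 barcodes, was led by Ube2c, Cenpf, Tpx2, Cdk1 and Mki67, genes of cell division, with Plvap at 3586 CPM and Car2 at 645 CPM. It held 4 anterior, 1 posterior, 3 and 1 lane members. Car4 and Wfdc1 lay between 0 and 9.09 CPM in all 6 clusters.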

How the data were processed

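Single-cell RNA was measured in 4 libraries with 10x Chromium 3′ v3 chemistry, per the labels' protocols. The authors deposited 1 matrix of UMI counts per gene and barcode, with the library given by the barcode suffix, and the submitters' processing notes name Cell Ranger 3.1. The aligner's genome build is not given in the sources used here. Libraries held 61981865 to 72754998 UMIs over 7424 to 8550 barcodes, and 3936 to 5714 barcodes met the limits.

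From these counts, UMI sums per gated class and preparation were tested with edgeR 4.0.16 (R 4.3.3, TMM, filterByExpr, quasi-likelihood F test, class and preparation as terms). The fit had 18 sums of 9 classes, 8 residual degrees of freedom and Benjamini-Hochberg adjustment over 14535 genes. Genes used by the rule were then left out of counts. A class needed 30 barcodes in each preparation, which the mural gate planned for the comparison lacked. P-values measure the spread between these sums, which may be technical. The script was tested on simulated data. DESeq2 1.42.0 and other settings were alternatives. Doublets were scored with Scrublet (scanpy 1.11.5) and kept in the main values.

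Named genes were the 12 largest called changes in each direction between the endothelial classes (at least 50 CPM in the higher group, same direction in both preparations), the 15 largest rises and 5 largest falls against other classes (at least 100 CPM), the 10 largest ratios each way between lobes, and the 3 highest of each list. Genes at under 10% of the level of the highest class (possible free RNA) were passed over. One gene named by this rule between the lobes is not reported here. Other list genes named, and the sets chosen within the posterior library, were picked after their values were seen. The members and lists were chosen with earlier results of these data known.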

Additional observations from a re-analysis of the deposited data

Results flagged for a closer look

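The hormone subunit gene Cga went opposite ways in the dissected libraries. In the anterior library its level in Aqp1-negative barcodes was 13.3-fold that of the 5 Aqp1-positive ones, and in the posterior library 0.358-fold (counting interval 0.112 to 0.887). The difference between the libraries was not tested, and 92.9% of the anterior members' Cga UMIs came from 1 barcode.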

How the results depend on the processing

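Genes called between the endothelial classes numbered 758. They were 1142 with no low-count filter, 338 without endothelial barcodes that passed another gate, and 271 with 3 suspensions and the endothelial classes alone. Leaving out 1 library at a time gave 262 (without posterior) to 801 (without the second lane), with 430 without anterior. In the other alternatives the count stayed within 1.5 times, and against the other non-endocrine classes the total did so in every alternative run, although the lower genes alone went from 1015 to 669 without the posterior library. The lobe comparison had 14 genes past 4-fold in place of 56 without members that passed another gate. Aqp1-negative shares moved beyond their intervals in the lanes when thinned (81.9% and 84.4%) and, in an alternative added after seeing the data, without other gates (100% anterior, 25.3% posterior, 83.2% first lane). At most 10% mitochondrial UMIs left 89 members in the first lane.

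Over 117 named results and their alternatives, 1571 of 1757 values kept direction and call, 183 kept the direction and lost the call, and 3 reversed. Col18a1 between the endothelial classes reached 7.22 (log2) without barcodes of other gates, where its lane levels were 2.09 and 0 CPM, near the floor. Ocln against other classes reached 0.22 at 3000 UMIs or more and 0.225 at 10% mitochondrial UMIs. The cause was not tested. Both endothelial classes were taken from the same preparations, and preparation was a term of the fit. Without that term 711 genes were called between them. With 42 posterior members and 5 anterior Aqp1-positive barcodes, depth limits any statement on genes under about 30 UMIs.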
